A study of Mus musculus with 42 samples.

Results

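Hnf4a, Ihh, Cited1, Cubn, Amn, Lrp2 and Dab2 encode regulators and endocytic receptors best known from the visceral endoderm, and they were chosen by name, as 7 of 21308 genes on the array, by a rule that uses no measured value, although earlier results of these data were known when the choice was made. Probes were taken by RefSeq accession, which gave 8 of 28066 probes, and each gene is represented by its brightest probe over all 42 arrays. Cubn alone had a second probe, which was not well above background on any array and is not used further. Total RNA was measured on Agilent one-colour arrays in 14 groups of 3 arrays, each group holding 3 independent experiments by the submitters' account. All groups derive from 1 mouse embryonic stem cell (ESC) line, B6, which carries GFP knocked in at Gsc and RedStar knocked in at Hhex and was differentiated in monolayer to anterior definitive endoderm (ADE) over 6 days. The untreated groups were ESCs, unsorted day 2 (d2) cells, and cells sorted by GSC-GFP (G) and HHEX-RedStar (H) as d3 G- and G+, d4 G- and G+, d5 G-, Glow and Ghigh, and d6 G+H- and G+H+. A further set of d6 cultures, whose labels name no sort, received DMSO as ESCs and during differentiation (Control), DMSO and then the EZH2 inhibitor EPZ6438 at 2.5 µM during differentiation (ADE_EPZ), or EPZ6438 as ESCs and DMSO during differentiation (ES_EPZ). The reporters are read from 1 tagged allele each in 1 line, and no extra-embryonic tissue was included as a reference.

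Visceral endoderm is the epithelium that surrounds the early epiblast and feeds it by taking up maternal proteins at its apical surface, whereas definitive endoderm forms later from the epiblast through the primitive streak. Uptake rests on cubilin (Cubn), a large peripheral receptor that amnionless (Amn) brings to the membrane, and on megalin (Lrp2), a member of the LDL receptor family whose tail is bound by the clathrin adaptor DAB2. HNF4A is a nuclear receptor needed for the secretory programme of the visceral endoderm, Indian hedgehog (Ihh) is a ligand secreted by it, and CITED1 is a co-activator without a DNA-binding domain that binds CBP and p300.

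The upstream sequence of Hnf4a is shown because this gene had the largest change of the 7. RefSeq upstream windows of 250 bases (assembly GRCm38.p6) were held for 7 of 7 genes, 11 windows in all, and were searched on both strands for letters preferred by HNF4 (AGGTCA repeated after any 1 base, up to 2 mismatches), GATA factors (AGATAA) and forkhead factors (TGTTTAC). A match was found in 1 window, at the first Hnf4a start. It lies at chr2:163506607-163506810 on the plus strand, and the bases of the window that fall inside the RefSeq gene are left out. The match is in capitals and the sequence runs 5′ to 3′.
Hnf4a first start: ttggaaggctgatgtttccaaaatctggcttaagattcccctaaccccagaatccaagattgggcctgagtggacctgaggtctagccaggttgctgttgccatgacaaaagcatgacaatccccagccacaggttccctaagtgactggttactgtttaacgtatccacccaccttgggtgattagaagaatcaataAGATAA
The capitals are the GATA letters, which span the 52nd to the 47th base before the start used for the window. That start lies inside the RefSeq gene, which begins at 163506811, so the letters end directly before the gene. GATA letters occurred in 9.99% of 32851 windows of this length, HNF4 letters in 3.24% and forkhead letters in 3.17%. The other 10 windows, including those of Cubn and Amn, did not contain the letters searched. A match describes letters only, and binding was not measured here.

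Values below are deposited log2 intensities. Differences are from a limma fit over all 42 arrays with Benjamini-Hochberg adjustment over all probes, and the word called is used where that p did not exceed 0.01 and the log2 fold change was 1.5 or more in either direction. The scanner software marked from 24504 (lowest array) to 40428 probes (highest array) as well above background, and 0 values as saturated. In bulk RNA, fewer cells of a type and less RNA per cell cannot be told apart. The untreated and EPZ6438 arrays were on different slides and extracted with different software versions, so series and batch cannot be told apart, and no difference is drawn between the series. With 3 arrays per group, an exact permutation test gives no p under 0.1, and p values of single genes are therefore limma adjusted p values.

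**Figure D1:**
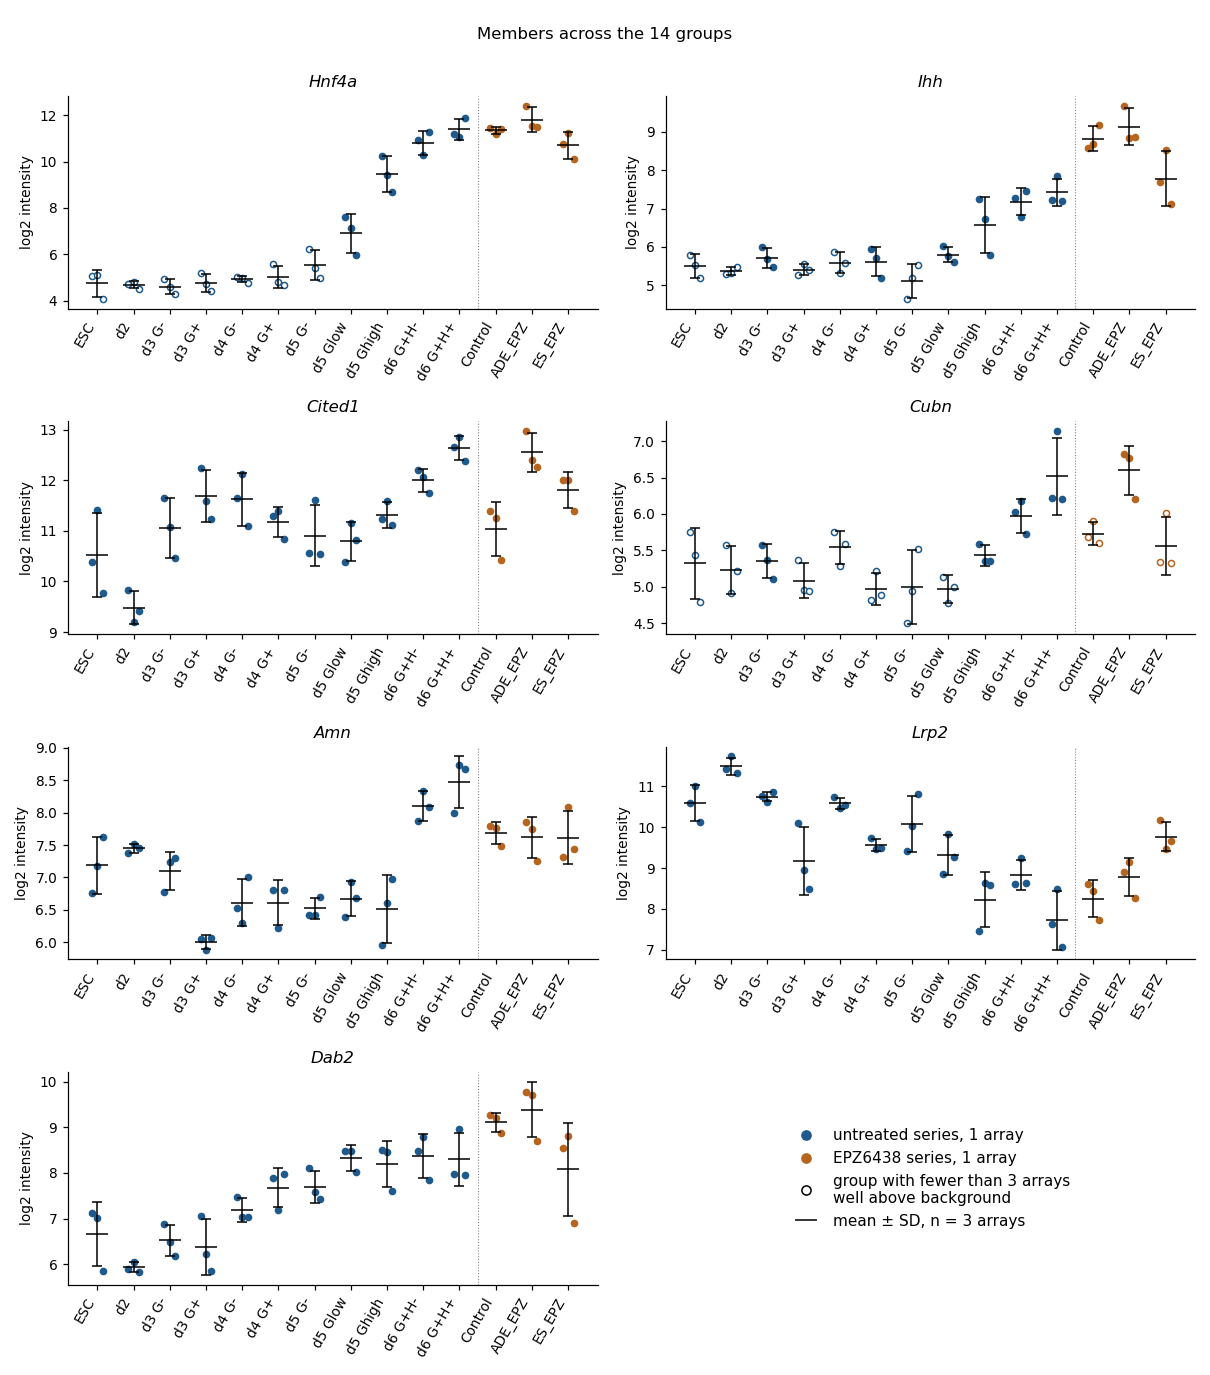
Log2 intensity (y axis) of each gene on all 42 arrays by group (x axis), with untreated groups left of the dotted line and the EPZ6438 series right of it. Points are arrays, bars are mean ± SD (n = 3), open points mark groups with fewer than 3 arrays well above background, and the y range differs between panels. Hnf4a is between 4.06 and 6.24 up to d5 G- and between 10.27 and 11.9 in the d6 sorted groups.

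Hnf4a was low through d4 and was high in d5 Ghigh cells and in both d6 populations, with or without the HHEX reporter. In ESCs it read 5.06, 5.09 and 4.06, with 0 of 3 arrays well above background. The d5 G- arrays read 6.24, 5.39 and 4.97. Glow cells of that day read 7.61, 7.13 and 5.98, and Ghigh cells 10.25, 9.43 and 8.69. The Ghigh arrays lay above all Glow and G- arrays, whereas the Glow and G- arrays overlapped.

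At d6, Hnf4a was 10.92, 10.27 and 11.29 in G+H- cells and 11.21, 11.06 and 11.9 in G+H+ cells. All 6 of these arrays were above every earlier array, and the d6 groups overlapped each other. Relative to ESCs the log2 fold change was 2.17 in d5 Glow (SE 0.39, limma adjusted p = 7.32e-05), 4.72 in d5 Ghigh (SE 0.39, limma adjusted p = 2.34e-11), 6.09 in d6 G+H- (SE 0.39, limma adjusted p = 3.72e-14) and 6.65 in d6 G+H+ cells (SE 0.39, limma adjusted p = 3.56e-15). Because no ESC array was well above background, these rises are at least 4.31-fold, 25.3-fold, 65.2-fold and 96.4-fold, taken against the dimmest probes above background on the ESC arrays. Within the slides that held both groups, d5 Ghigh exceeded ESCs by 4.38 to 5.16 on 3 slides, d6 G+H- by 5.21 and 7.23 on 2 slides, and d6 G+H+ by 6.12 on 1 slide, all on the log2 scale. No slide held both d5 Glow and ESC arrays, and the d5 Glow change was not called with a normexp offset of 50 (1.29) or in a fit of those groups alone (limma adjusted p = 0.0139).

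Ihh rose in the same late populations by a smaller amount. It read 5.8, 5.54 and 5.18 in ESCs, 7.28, 6.79 and 7.47 in d6 G+H- cells and 7.23, 7.84 and 7.21 in d6 G+H+ cells. Each of the 6 d6 arrays was above each ESC array. The log2 fold change relative to ESCs was 1.67 in G+H- (SE 0.31, limma adjusted p = 7.46e-05) and 1.92 in G+H+ cells (SE 0.31, limma adjusted p = 8.29e-06). In d5 Ghigh cells it was 1.08 and missed both thresholds (SE 0.31, limma adjusted p = 0.0114). Only 2 of 3 ESC arrays were well above background, and the size of these changes depended on the processing. With an offset of 50 both fell below the fold threshold, to 1.11 and 1.31, and the d6 G+H- change did so without background correction (1.32). Over all alternatives the change lay between 1.11 and 2.47 in G+H- and between 1.31 and 2.8 in G+H+ cells. Within slides, G+H- cells differed from ESCs by 0.99 and 2.29, and G+H+ cells by 1.69.

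Cited1 was detected on 42 of 42 arrays and was lowest at d2. It read 10.38, 11.42 and 9.78 in ESCs, 9.84, 9.19 and 9.42 at d2, and 12.24, 11.59 and 11.24 in d3 G+ cells. The d2 arrays were below every d3 G+ array, while the ESC arrays spread across the range and overlapped both. In d6 G+H+ cells Cited1 read 12.65, 12.85 and 12.37, above every ESC array, and the log2 fold change was 2.1 (SE 0.36, limma adjusted p = 1.67e-05). In d6 G+H- cells it was 1.48 (SE 0.36, limma adjusted p = 0.00173), which passed the p threshold and missed the fold threshold. ESC replicate 2 was the highest ESC array, and without it the changes in d3 G+, d4 G- and d6 G+H- cells were called at 1.61, 1.54 and 1.92. Without d6 G+H- replicate 3 the d6 G+H- change was also called, at 1.61, as it was with slide as a fixed block, at 1.5. Within slides, G+H- cells differed from ESCs by 1.69 and 1.97, and G+H+ cells by 1.23.

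Cubn was close to background for most of the course. Its arrays read 5.75, 5.43 and 4.79 in ESCs, with 1 of 3 well above background, and 0 of 3 were above it in d4 G+ and in d5 Glow cells. In d6 G+H+ cells it read 6.22, 7.14 and 6.21, above every ESC array. The log2 fold change was 1.2 (SE 0.26, limma adjusted p = 0.000417), which missed the fold threshold, and was called at 2.37 when the processed signal was scaled to the 75th percentile.

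Amn, the partner of Cubn, had its lowest untreated level in d3 G+ and its highest in d6 G+H+ cells. It read 6.76, 7.18 and 7.63 in ESCs, 6.05, 5.88 and 6.07 in d3 G+ cells, 7.87, 8.33 and 8.09 in d6 G+H- cells and 8, 8.74 and 8.67 in d6 G+H+ cells. The d3 G+ arrays were below and the d6 arrays above every ESC array. None of these changes against ESCs reached the fold threshold: the log2 difference was -1.19 in d3 G+ (SE 0.25, limma adjusted p = 0.00059), 0.91 in d6 G+H- (SE 0.25, limma adjusted p = 0.00651) and 1.28 in d6 G+H+ cells (SE 0.25, limma adjusted p = 0.000139). Without d6 G+H+ replicate 1 the last was called, at 1.51. The step from d5 Ghigh cells, which read 5.95, 6.61 and 6.98, to d6 G+H- cells was called, at 1.58 (SE 0.25, limma adjusted p = 8e-05). It fell below the fold threshold without d5 Ghigh replicate 1 (1.3), without d6 G+H- replicate 2 (1.47), with an offset of 50 (1.25) and without background correction (1.36), and missed the p threshold in a fit of the compared groups alone (limma adjusted p = 0.0555). Within the 2 slides that held both groups the difference was 1.72 and 1.11.

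Lrp2 went the other way. It read 10.6, 11.01 and 10.12 in ESCs, 11.43, 11.73 and 11.33 at d2, 7.46, 8.64 and 8.59 in d5 Ghigh cells, 8.6, 9.25 and 8.64 in d6 G+H- cells and 7.62, 8.49 and 7.06 in d6 G+H+ cells. The d2 arrays were above all others of the 11 untreated groups, and all arrays of the last 3 groups were below every ESC array. Lrp2 fell relative to ESCs, with a log2 difference of -2.35 in d5 Ghigh (SE 0.38, limma adjusted p = 1.02e-05), -1.75 in d6 G+H- (SE 0.38, limma adjusted p = 0.000468) and -2.85 in d6 G+H+ cells (SE 0.38, limma adjusted p = 2.14e-07). Within slides the difference lay between -3.55 and -1.53 in d5 Ghigh, was -1.35 and -1.48 in d6 G+H-, and was -3.39 in d6 G+H+ cells. In d3 G+ cells it was -1.4 (limma adjusted p = 0.00654), and was called without ESC replicate 3 (-1.63) or d3 G+ replicate 1 (-1.86). In d5 Glow cells it was -1.26, and was called without d5 Glow replicate 2 (-1.52).

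Dab2, the adaptor, was lowest at d2, at 5.9, 6.04 and 5.83. It read 7.13, 7.01 and 5.84 in ESCs, 8.49, 8.49 and 8.01 in d5 Glow cells, 8.51, 8.45 and 7.61 in d5 Ghigh cells, 8.49, 8.78 and 7.85 in d6 G+H- cells and 7.97, 8.97 and 7.96 in d6 G+H+ cells. The ESC arrays did not overlap those 4 groups, which overlapped one another. The log2 fold change relative to ESCs was 1.67, 1.53, 1.71 and 1.64 in this order, each with SE 0.4, and was called in each, at limma adjusted p between 0.00112 and 0.0045. These 4 calls share the ESC arrays and depend on replicate 3 of that group: without it the changes were 1.26, 1.12, 1.3 and 1.23, and 0 of the 4 were called. Calls were also lost without replicate 1 or 2 of d5 Glow (1.59 in both), replicate 1 or 2 of d5 Ghigh (1.36 and 1.4), d6 G+H- replicate 2 (1.51) or d6 G+H+ replicate 2 (1.3). With an offset of 50, without background correction and in fits of the compared groups alone, 0 of the 4 were called, at log2 changes of 1.2 to 1.37, 1.3 to 1.48 and 1.53 to 1.71. The d5 Ghigh call was also lost on values recomputed from the scanner files (1.5) and with 75th percentile scaling (limma adjusted p = 0.0102). Within slides, d5 Ghigh cells differed from ESCs by 1.31, 1.5 and 1.76, G+H- cells by 1.65 and 2.01, and G+H+ cells by 0.96.

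Counted over the 7 genes, 5 were called in d6 G+H+ cells relative to ESCs, 4 higher and 1 lower, where 11.1% of all genes were called (5.77% higher, 5.32% lower). The median log2 difference was 1.64 over the 7 genes and 0 over all genes. In d6 G+H- cells 4 of 7 were called, 3 higher and 1 lower, against 10.2% of all genes (5.08% higher, 5.1% lower). In d5 Ghigh cells it was 3 of 7, 2 higher and 1 lower, against 8.18% (3.63% higher, 4.55% lower), and in d5 Glow cells 2 of 7, both higher, against 7.73% (3.52% higher, 4.22% lower). In the 6 earlier or G- populations 0 of 7 were called by limma. Of all genes, 1.71% were called at d2 (0.357% higher, 1.35% lower), 2.41% in d3 G- (1.12% and 1.29%), 6.59% in d3 G+ (2.9% and 3.69%), 3.21% in d4 G- (1.48% and 1.74%), 7.39% in d4 G+ (3.02% and 4.36%) and 4.31% in d5 G- cells (2.14% and 2.18%). At an unadjusted p under 0.05 there were 2, 0, 3, 2, 3 and 2 of the 7 in the same order, against 22.7%, 27.7%, 35.7%, 27.9%, 36.9% and 30.6% of all genes. All these comparisons share the ESC arrays. The order of the 11 untreated groups by level, a set chosen after the values were seen, was mostly not resolved. Of 10 neighbouring pairs per gene, 1 passed an adjusted p of 0.01 in limma for Hnf4a (d5 Ghigh above d5 Glow, a log2 difference of 2.55), and no pair did for the other 6 genes. The arrays of neighbours did not overlap in 2 pairs for Hnf4a, in 1 pair each for Cited1, Cubn, Amn and Lrp2, and in 0 for Ihh and Dab2. Lack of overlap was common among all genes. It held for 8.88% of them between the d6 groups and 15% between d5 Ghigh and Glow cells. Between d6 G+H- and d5 Ghigh cells it held for 24.4%. Against ESCs it held for 37.8% in d3 G+, 38.5% in d5 Glow and 41.1% in d5 Ghigh cells. In d6 G+H- and d6 G+H+ cells against ESCs it held for 43.2% and 45%.

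**Figure D2:**
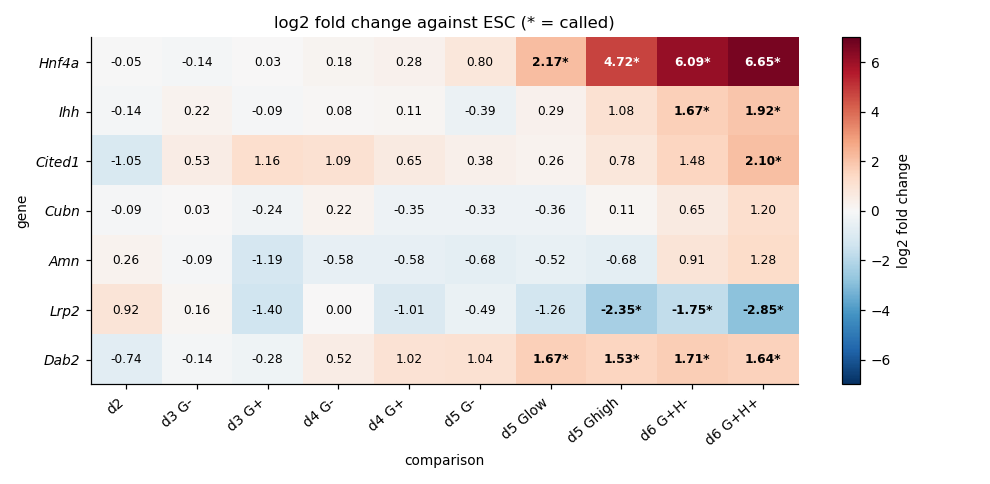
Log2 fold change of each gene (rows) in each untreated population (columns) relative to ESCs. Numbers and colour give the change, and an asterisk marks a call. Calls begin at d5 Glow and number 5 in d6 G+H+ cells, where Lrp2 is the one gene called lower.

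Between cells sorted by the GSC reporter within a day, Lrp2 was called at d3 and d5, and Hnf4a at d5 only. At d3, the G- arrays of Lrp2 read 10.75, 10.62 and 10.85, and its G+ arrays read 10.09, 8.95 and 8.48. Every G+ array was below every G- array, with a log2 difference of -1.57 (SE 0.38, limma adjusted p = 0.00887). It was 1 of 7 genes called, where 1.8% of all genes were called (0.699% higher, 1.1% lower). This call was lost without d3 G- replicate 1 (-1.56), 2 (-1.63) or 3 (-1.51), without d3 G+ replicate 2 (-1.45) or 3 (-1.22), and with slide as a fixed block (-1.59, limma adjusted p = 0.0187), and it held with slide as a random block (-1.58, limma adjusted p = 0.00601). The difference was -1.67 and -2.37 within the 2 slides that held both populations. Amn was also lower in d3 G+ cells, where no array overlapped the G- arrays of 6.77, 7.24 and 7.3, with a log2 difference of -1.1 under the fold threshold (SE 0.25, limma adjusted p = 0.00568). Arrays of these d3 populations did not overlap for 22.4% of all genes.

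At d4, 0 of 7 genes were called between G+ and G- cells by limma, against 2.26% of all genes (0.807% higher, 1.45% lower), and 2 had an unadjusted p under 0.05, as did 20.8% of all genes. The G+ arrays of Lrp2 read 9.73, 9.46 and 9.49 and its G- arrays 10.74, 10.46 and 10.54, again without overlap, with a log2 difference of -1.02 (SE 0.38, limma adjusted p = 0.144). Of all genes, 28.3% had no overlap between these d4 populations. A change of this sort difference between d3 and d4 was called for 0 of 7 genes and 0% of all genes, and 2 of the 7 and 3.47% of all genes had an unadjusted p under 0.05.

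At d5, Hnf4a was higher in Ghigh than in G- cells by 3.92 (SE 0.39, limma adjusted p = 2.8e-08) and higher in Ghigh than in Glow cells by 2.55 (SE 0.39, limma adjusted p = 0.000407). Lrp2 was lower in Ghigh than in G- cells, which read 9.42, 10.02 and 10.8, by a log2 difference of -1.85 (SE 0.38, limma adjusted p = 0.00146). These were 2 of 7 genes against 2.56% of all genes for Ghigh and G- (0.971% higher, 1.59% lower), and 1 of 7 against 0.263% for Ghigh and Glow (0.239% higher, 0.0235% lower). In fits of the compared groups alone, Lrp2 (limma adjusted p = 0.109) and the Ghigh to Glow difference of Hnf4a (limma adjusted p = 0.354) were not called, and the latter was not called with 75th percentile scaling either (2.94, limma adjusted p = 0.227). The Lrp2 call was lost without d5 G- replicate 3 (-1.49) or d5 Ghigh replicate 1 (-1.47), and on the 1 slide that held both groups the differences were 3.2 for Hnf4a and -0.78 for Lrp2. Ihh read 4.64, 5.18 and 5.52 in d5 G- cells and 7.24, 6.72 and 5.79 in Ghigh cells, without overlap, as for 22.4% of all genes. Its difference of 1.47 (SE 0.31, limma adjusted p = 0.0025) was just under the fold threshold and was called without d5 G- replicate 3 (1.67) or d5 Ghigh replicate 3 (1.87), with slide as a fixed block (1.52), with 75th percentile scaling (2.6) and with normalisation within each series (1.5), but not with slide as a random block (1.49).

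At d6, 0 of 7 genes, and 0% of all genes, were called between G+H+ and G+H- cells by limma, and 5.98% of all genes and 2 of the 7 had an unadjusted p under 0.05. Those 2 were Lrp2, whose G+H+ arrays lay below all G+H- arrays with a log2 difference of -1.11 (95% interval -1.87 to -0.34, limma adjusted p = 0.73), and Cubn, whose G+H+ arrays lay above them with a difference of 0.55 (95% interval 0.02 to 1.08, limma adjusted p = 1). Between these d6 populations 8.88% of all genes had no overlap. The Hnf4a difference was 0.56. In the last step, from d5 Ghigh to d6 G+H- cells, Amn was the 1 of 7 genes called, where 2.17% of all genes were called (1.39% higher, 0.779% lower).

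The 7 genes were read beside marker lists of the cell types these cultures could hold. Of 15 extra-embryonic visceral endoderm markers, which include Hnf4a, Amn and Cubn, 14 were well above background on all d6 G+H+ arrays and 7 on all ESC arrays. The summed linear level was 30971 to 43982 in d6 G+H+ cells and 7874 to 8268 in ESCs. A few genes carried this sum, among them Rbp4, with a mean of 6.9 in ESCs and 14.05 in d6 G+H+ cells, and Cdh2 (9.96 and 12.84). Others were level or lower, such as Rhox5 (12.54 and 12.24) and Trf (8.43 and 5.44), and these genes were named after their values were seen. Afp, the classical marker of that tissue, was above background on 2 of 3 d6 G+H+ arrays, with a mean of 5.1. Of 10 definitive endoderm markers, 10 were above background on all d6 G+H+ arrays and 5 on all ESC arrays, with sums of 208684 to 225811 against 37154 to 45908 in ESCs. The 7 anterior visceral endoderm markers, some of which are also on the definitive list, summed to 209625 to 266713 against 7717 to 9689. The definitive list holds Gsc and Hhex, the genes of the sorting reporters, and Hhex is on the anterior visceral list too. These counts and sums are therefore not independent of the sort. Trh, on the definitive list, was already high in ESCs, with a mean of 14.91 there and 16.54 in d6 G+H+ cells. The pluripotency markers summed to 2764 to 3411 in d6 G+H+ cells against 112271 to 174167 in ESCs. Parietal endoderm markers summed to 140037 to 154690 against 29122 to 71978, and trophoblast markers to 11703 to 12906 against 5831 to 6558. Members of both lists went both ways. In the parietal list the mean of Sparc was 15.06 in ESCs and 16.64 in d6 G+H+ cells, and that of Lama1 was 11.62 and 8.93. In the trophoblast list Gata3 was at 7.3 and 11.54, and Cdx2 at 7.56 and 4.71. Mesoderm markers summed to 2476 to 2865 against 7789 to 13909, and neural markers to 1686 to 3504 against 3403 to 5080. Members of these lists also went both ways. The mean of Bmp4 was 12.88 in ESCs and 7.33 in d6 G+H+ cells. Pdgfra (4.81 and 7.71), Mixl1 (4.54 and 6.88) and Tbx6 (6.47 and 8.18) were higher in the d6 cells. Of the neural markers, Tubb3 was lower (10.72 and 7.74) and Zic1 higher (8.14 and 8.81). These genes too were named after their values were seen. Above background on all d6 G+H+ arrays were also 11 of 12 parietal, 7 of 8 trophoblast and 7 of 10 pluripotency markers. So were 7 of 10 mesoderm and 4 of 6 neural markers. The part of these cell types in the values of the 7 genes was not tested.

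Other genes of the same processes changed unequally in d6 G+H+ cells relative to ESCs. Of 16 genes known as HNF4A targets in visceral endoderm, 7 were higher, 1 was lower and 8 were not called, with a median log2 difference of 0.9 against 0 over all genes. The retinol carrier Rbp4 rose by 7.15 (limma adjusted p = 7.44e-18) and the thyroxine carrier Ttr by 4.3 (limma adjusted p = 1.23e-07), at least 19.1-fold because Ttr was not above background in ESCs. Among 14 ligands of cubilin and megalin, some of them on the former list, 5 were higher and 1 lower, again led by Rbp4 and Ttr, with a median of 0.24. Of 19 endoderm transcription factors 12 were higher and 2 lower, with a median of 2.87. The forkhead factor Foxa2 rose by 8.29 (limma adjusted p = 1.6e-12), and Sox17 rose by 7.57 (limma adjusted p = 9.71e-16), at least 190-fold.

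In the hedgehog pathway, beside its ligand Ihh, 5 of 15 other genes were lower, 1 was higher and 9 were not called, with a median of -0.34. The transcriptional effectors Gli1 and Gli2 fell, with log2 differences of -5.74 (limma adjusted p = 2.07e-14) and -3.14 (limma adjusted p = 3.41e-12). Among 13 LDL receptor relatives and receptor chaperones 2 were higher and 11 were not called, with a median of 1.01. The VLDL receptor gene Vldlr rose by 4.77 (limma adjusted p = 1.33e-10), and Lrpap1, the chaperone of megalin and its relatives, rose by 2.05 (limma adjusted p = 6.23e-10), while Lrp2 itself fell. Of 22 clathrin adaptors and parts of the endocytic machinery, 2 were higher and 1 lower, with a median of 0.49. The clathrin light chain gene Cltb fell by 2.81 (limma adjusted p = 2.11e-09), and Clcn5, an endosomal chloride transporter, rose by 2.45 (limma adjusted p = 3.08e-11). In the CITED family and its partners 7 of 8 were not called, and Cited4 fell by 1.65 (limma adjusted p = 6.04e-07), with a median of -0.22. Of 11 further genes on the study's own visceral endoderm list 8 were higher and 3 were not called, with a median of 1.62, led by Bmp2 at 6.05 (limma adjusted p = 2.57e-14) and Hhex at 5.13 (limma adjusted p = 2.79e-12). That list was chosen by the study and Hhex is the gene of the sorting reporter, so its count is not independent evidence.

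EPZ6438, which blocks the methyltransferase of the Polycomb repressive complex PRC2, was added either during differentiation or before it. In Control cultures Cited1 read 11.4, 11.26 and 10.42. It read 12.97, 12.4 and 12.27 in ADE_EPZ cultures and 12.01, 12.01 and 11.39 in ES_EPZ cultures. The ADE_EPZ arrays were above all Control and ES_EPZ arrays, and the ES_EPZ and Control arrays overlapped. Arrays of ADE_EPZ and ES_EPZ cultures did not overlap for 18.8% of all genes. The log2 difference between ADE_EPZ and Control was 1.52 (SE 0.36, limma adjusted p = 0.00394), and Cited1 was the 1 of 7 genes called where 2.75% of all genes were called (1.96% higher, 0.798% lower). On the 3 slides, each of which held 1 array of every regimen, the difference was 1, 1 and 2.55. The call was lost without Control replicate 3 (1.21, limma adjusted p = 0.0514), without ADE_EPZ replicate 1 (1.3, limma adjusted p = 0.0371), with 75th percentile scaling (1.41) and in a fit of the compared groups alone (limma adjusted p = 0.0126).

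Cubn was next in ADE_EPZ cultures, at 6.82, 6.77 and 6.2 against 5.68, 5.9 and 5.6 in Control, without overlap. Its log2 difference of 0.87 (SE 0.26, limma adjusted p = 0.0248) missed both thresholds, and 2 of 3 Control arrays were above background. For Hnf4a the ADE_EPZ arrays of 12.41, 11.52 and 11.49 lay just above the Control arrays of 11.46, 11.2 and 11.4, with a log2 difference of 0.46 and a 95% interval of -0.35 to 1.26. Ihh, Amn, Lrp2 and Dab2 overlapped between these cultures, so that 3 of 7 genes were apart, where 39.7% of all genes were.

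In ES_EPZ cultures 0 of 7 genes were called against Control by limma, where 0.422% of all genes were called (0.361% higher, 0.061% lower), and 4 of the 7 had an unadjusted p under 0.05, as did 18.7% of all genes. Lrp2 read 10.17, 9.47 and 9.67, above all Control arrays of 8.6, 8.44 and 7.73, with a log2 difference of 1.52 (SE 0.38, limma adjusted p = 0.0268) that passed the fold threshold and missed the p threshold. It was higher on each slide, by 0.88, 1.24 and 2.44. Ihh read 7.7, 8.53 and 7.12, below all Control arrays of 8.58, 8.69 and 9.19, with a difference of -1.04 (SE 0.31, limma adjusted p = 0.0818). Dab2 read 8.54, 8.8 and 6.91, below all Control arrays of 9.26, 9.21 and 8.87, with a difference of -1.03 (SE 0.4, limma adjusted p = 0.213). Arrays of ES_EPZ and Control cultures did not overlap for 28% of all genes. The regimens share the Control arrays, and their difference was tested directly: 0 of 7 genes were called between ADE_EPZ and ES_EPZ by limma, against 0.127% of all genes, while 6 of the 7 had an unadjusted p under 0.05, as did 13% of all genes. Ihh was nearest, at 1.35 (SE 0.31, limma adjusted p = 0.0309), and was called without ES_EPZ replicate 2 (1.72, limma adjusted p = 0.00725).

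**Figure D3:**
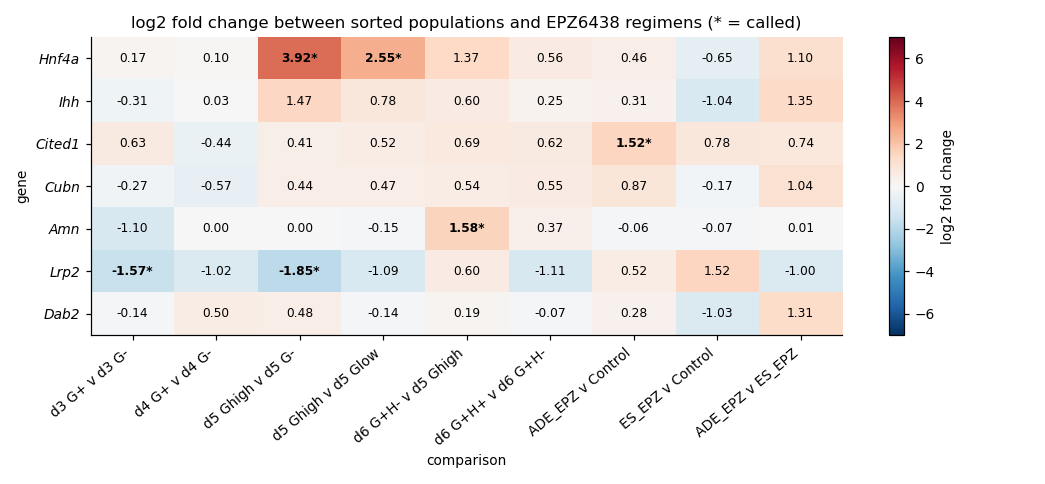
Log2 fold change of each gene (rows) between sorted populations of 1 day, in the last step of the course, and between EPZ6438 regimens (columns), first group minus second. Asterisks mark calls: Lrp2 at d3 and d5, Hnf4a at d5, Amn from d5 to d6, and Cited1 in ADE_EPZ against Control.

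**Figure D4:**
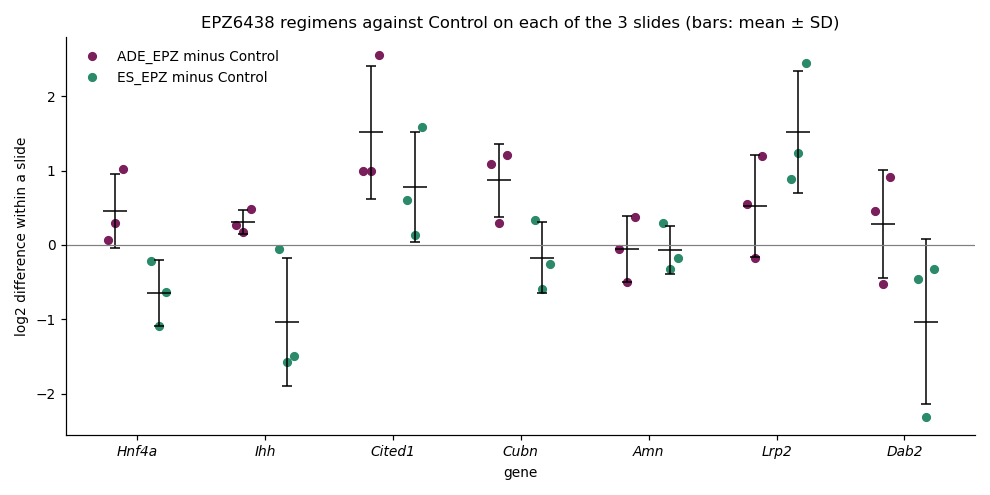
Log2 difference from the Control array of the same slide (y axis) for each gene (x axis) in ADE_EPZ and ES_EPZ cultures. Points are the 3 slides and bars are mean ± SD. Cited1 was above 0 on every slide in both regimens, and Lrp2 was above 0 on every slide in ES_EPZ.

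Marker sums also differed between regimens in these d6 cultures. Definitive endoderm markers summed to 58980 to 66316 in Control, 166577 to 178952 in ADE_EPZ and 101817 to 144262 in ES_EPZ cultures, and mesoderm markers to 23663 to 30664, 4319 to 7239 and 5466 to 14327. In the 3 regimens 10, 10 and 10 of 10 definitive endoderm markers and 10, 9 and 10 of 10 mesoderm markers were above background on all arrays. Trh was the brightest definitive marker, with a mean of 15.03 in Control and 16.42 in ADE_EPZ. Cer1 was also higher in ADE_EPZ (12.65 and 15.06), while Cxcr4 was at 9.85 and 9.9. Bmp4 held most of the Control mesoderm sum, with a mean of 14.32 in Control and 10.55 in ADE_EPZ, while Kdr was at 10.84 and 10.85. Extra-embryonic visceral endoderm markers summed to 25069 to 28337, 41884 to 47701 and 34208 to 38075, anterior visceral endoderm markers to 47582 to 66026, 143989 to 236451 and 113467 to 225895, and parietal endoderm markers to 94785 to 105351, 151374 to 177376 and 116727 to 144515. The pluripotency sum was 2714 to 3227 in Control, 3990 to 6575 in ADE_EPZ and 2490 to 5110 in ES_EPZ cultures, so that the ADE_EPZ arrays were above all Control arrays. Trophoblast markers summed to 4784 to 6960, 10881 to 12789 and 9120 to 9884, and neural markers to 2228 to 2807, 2974 to 3426 and 3595 to 6073. Members of the extra-embryonic visceral list went both ways. Rbp4 had a mean of 12.02 in Control and 14.13 in ADE_EPZ, and Rhox5 of 11.13 and 12.97. Cdh2 (13.77 and 13.34), Soat2 (10.82 and 10.28) and Afp (6.26 and 5.92) were lower in ADE_EPZ. In the parietal list Sparc had a mean of 16 in Control and 16.8 in ADE_EPZ, and Snai1 of 10.17 and 8.37. In the trophoblast list Gata3 was at 9.36 and 11.16, and Hand1 at 9.07 and 7.79. These genes, Trh, Cer1, Cxcr4, Bmp4 and Kdr were named after their values were seen. The part of these shifts in the changes of Cited1, Cubn, Lrp2 and Ihh was not tested.

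Around the 7 genes, the hedgehog list had 3 lower and 12 not called of 15 in ADE_EPZ against Control, with a median of -0.49 against -0.01 over all genes, and Gli2 and Gli1 had log2 differences of -2.08 (limma adjusted p = 1.18e-06) and -1.76 (limma adjusted p = 0.0011). Of all genes, 1.96% were called higher and 0.798% lower in this comparison. The endoderm transcription factors had 2 higher of 19, Hhex by 2.23 (limma adjusted p = 0.000217) and Nr2f2 by 1.85 (limma adjusted p = 0.00148). The ligands had 2 higher of 14, the extracellular chaperone Clu by 2.99 (limma adjusted p = 0.000852) and Rbp4 by 2.12 (limma adjusted p = 3.95e-05), and Rbp4 was the 1 higher of 16 HNF4A targets. The median was 0.65 over the transcription factors, 0.2 over the ligands and -0.02 over the HNF4A targets. Gulp1, an engulfment adaptor, was the 1 higher of 22 in the endocytic list, by 1.5 (limma adjusted p = 0.000402), and the study's visceral endoderm list had 2 higher of 11, Hhex and Fxyd3 (1.66, limma adjusted p = 2.63e-06). The endocytic list had a median of 0.43 and the study's list one of 1.06. The 13 LDL receptor relatives and the 8 CITED genes and partners were not called. In ES_EPZ against Control, Rbp4 alone was called in these lists, higher by 1.84 (limma adjusted p = 0.00231).

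Across the 14 group means the 7 genes fell into similar and opposed courses. Hnf4a and Ihh had a Pearson r of 0.92 (0.95 over the 11 untreated means), Hnf4a and Dab2 0.85 (0.78), Cubn and Amn 0.78 (0.83), and Lrp2 was negative with each of the other 6, from -0.3 with Amn to -0.78 with Hnf4a. Cited1 and Amn, at 0.33 (0.27), and Amn and Dab2, at 0.4 (0.25), had the lowest positive values. Other pairs with Dab2 were also lower over the untreated means, such as Cubn at 0.58 (0.37) and Ihh at 0.81 (0.66). These correlations are descriptions over means of both series that share arrays, slides and normalisation, and they have no p. Any offset between the series, which cannot be told apart from batch, enters the values over 14 means.

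**Figure D5:**
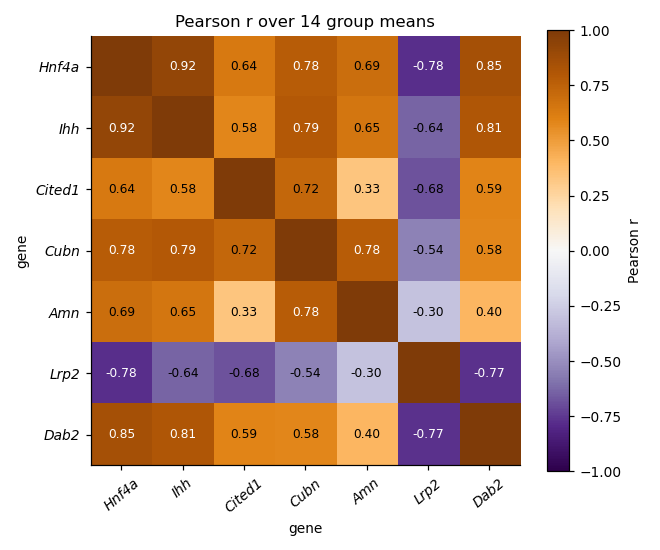
Pearson r between the 14 group means of each pair of genes (rows and columns). Colour and number give r, and the row of Lrp2 is negative throughout, from -0.78 to -0.3.

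Of 15709 other genes, the 3 whose group means were most like those of Hnf4a were Ctsh (r = 0.989), Galnt6 (0.987) and Hkdc1 (0.983). For Ihh they were Ttc17 (0.979), Avl9 (0.97) and Slc44a3 (0.968), and for Cited1 Gucy1a2 (0.935), Mindy2 (0.934) and Egr1 (0.934). For Cubn they were Psg23 (0.932), Apaf1 (0.929) and the myosin gene Myo6 (0.928). For Amn they were D030028A08Rik (0.923), Fndc3a (0.914) and Tal2 (0.913), for Lrp2 Uprt (0.941), Hecw2 (0.922) and Dok2 (0.921), and for Dab2 Cd302 (0.95), Txndc15 (0.946) and Aph1b (0.943). These are Pearson r values over 14 group means of both series and carry no test. Over the 11 untreated means the same pairs had r between 0.896 (Ihh and Slc44a3) and 0.986 (Hnf4a and Ctsh).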

How the data were processed

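RNA of 42 samples in 14 groups of 3 was measured on Agilent one-colour arrays. The authors deposited scanner files with median foreground and background intensity per spot (Feature Extraction 11.0.1.1 for untreated and 12.0.1.1 for EPZ6438 arrays), and a table of quantile-normalised log2 intensity, background-corrected by normexp with offset 10. This table was used, with spots of a probe averaged (55681 probes). It had a correlation of at least 0.99997903 with values recomputed from the scanner files. Symbols came from RefSeq tables (GRCm38.p6), which named 21850 of 22201 accessions.

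A limma 3.58.1 model (R 4.3.3) with 1 mean per group was fitted to all arrays, with Benjamini-Hochberg adjustment over all probes of a comparison. The procedure was tested on simulated data. The genes and lists were chosen with earlier results of these data known. All 7 genes are named, with the 3 most similar genes of each, and at most the 2 most changed called genes of each list in d6 G+H+ against ESC and ADE_EPZ against Control. Where a group had 0 arrays above background, folds are lower bounds against the dimmest probe above background. The precision is limited by 3 arrays per group. Same-numbered arrays deviated together, with all 3 correlations over 0.1, in 9 of 19 comparisons. All differences and p values given are from the fit without pairing, and the replicate number was fitted as a block as an alternative. Alternatives were recomputed values, an offset of 50, no background correction, 75th percentile scaling, normalisation within series, a filter on dim probes, narrower fits, slide and replicate blocks, the mean of all probes, and leaving out each array. Results on some listed genes are not reported here. Scanner columns of quality marks served to judge background.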

Additional observations from a re-analysis of the deposited data

Results flagged for a closer look

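The difference in Hnf4a between GSC-positive cells (G+ at d4, Ghigh at d5) and G- cells changed from d4 to d5. At d4, G+ cells read 5.57, 4.79 and 4.67 and G- cells 5.01, 4.96 and 4.77, with 1 and 0 of 3 arrays well above background. At d5, Ghigh cells exceeded G- cells by 3.92 on the log2 scale. The change of the difference was 3.83 (SE 0.56, limma adjusted p = 0.000333), where 0.15% of all genes were called, and Hnf4a was the 1 of 7 genes called. This comparison was drawn up after the values were seen, and the d4 and d5 gates differ. Over the alternatives it was between 3.04 and 4.97. It was not called with 75th percentile scaling (limma adjusted p = 0.198) or in a fit of the 4 compared groups alone (limma adjusted p = 0.0479).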

How the results depend on the processing

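Of 20 counts of called genes, 9 stayed within 1.5 times under every alternative. Among these 9, only the count for d5 Ghigh cells against ESCs, 2 to 3, was above 0, and the others were 0 throughout. With an offset of 50 the count was 0 for d5 Glow, 2 for d6 G+H- and 3 for d6 G+H+ cells against ESCs, 0 for d3 G+ against G- cells and 0 for d6 G+H- against d5 Ghigh cells. Without background correction it was 1 for d5 Glow and 2 for d6 G+H- cells against ESCs, and 0 for d6 G+H- against d5 Ghigh cells. With 75th percentile scaling it was 0 for d3 G+ against G-, for d5 Ghigh against Glow and for ADE_EPZ against Control. With the arrays of 1 series, or with slide as a fixed block, it was 0 for d3 G+ against G-. In a fit of the compared groups alone it was 0 for d5 Glow against ESCs, d3 G+ against G-, d5 Ghigh against Glow, d6 G+H- against d5 Ghigh, and ADE_EPZ against Control, and 1 for d5 Ghigh against G- cells. Leaving out 1 array gave 0 to 1 for d3 G+ and d4 G- cells and 1 to 2 for d5 Glow cells against ESCs, 0 to 1 for d3 G+ against G-, 1 to 3 for d5 Ghigh against G-, 0 to 1 for d6 G+H- against d5 Ghigh, 0 to 1 for ADE_EPZ against Control and 0 to 1 for ADE_EPZ against ES_EPZ. Apart from the offset, the background correction and the smaller fits, the cause was not tested.

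Of 816 single values under other alternatives, 777 kept their direction and side of the thresholds, 34 lost and 5 gained a call, and 0 changed direction. Of 438 values with 1 array left out, 406 did so, 21 lost and 11 gained a call, and 0 changed direction. The replicate block changed 0 calls of single genes, with Hnf4a at 6.65 in d6 G+H+ against ESCs. Probes near background, such as Hnf4a and Ihh in early groups and Cubn, understate differences.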
